A study of Mus musculus with 15 samples.

Results

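The cytosolic ribosomal protein genes encode the proteins of the large and small ribosomal subunits that translate nuclear-encoded mRNAs. They were chosen by name alone, as protein-coding mouse genes whose symbol begins with Rpl or Rps and a digit, plus Rplp0, Rplp1, Rplp2 and Rpsa, leaving out the ribosomal S6 kinases and symbols marked as pseudogenes. The rule took 86 of the 54838 genes in the tables. Of these, 43 encode large subunit proteins, 31 encode small subunit proteins, 3 encode the acidic stalk proteins of the large subunit, and 8 are paralogs of another member (Rpl3l, Rpl7l1, Rpl10l, Rpl22l1, Rpl36al, Rpl39l, Rps27l and Rps27rt). The remaining gene, Rps19bp1, encodes a partner of Rps19 and is not itself a ribosomal protein. Fau and Rack1 encode proteins of the same ribosome under other names and were described apart.

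Ribosomal proteins are made in nearly equal numbers and assembled on ribosomal RNA in the nucleolus, so their mRNAs are usually abundant and move together. In mammals most of these mRNAs begin with a short run of pyrimidines at the cap, the terminal oligopyrimidine tract, through which mTORC1 and Larp1 adjust their translation. Demand for ribosomes is known to follow growth and proliferation, which differ widely between tumour cells and resting lung epithelium.

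RNA sequencing covered 15 libraries, 3 in each of 5 groups. The 4T1 cells, a mammary carcinoma line derived from a BALB/c mouse, were taken in vivo from lungs of BALB/c mice 7 days after tail vein injection, or in vitro from serum-containing culture. The EpCAM-titled lung epithelial cells were sorted from lungs 7 days after 800000 labelling 4T1 cells had been injected into the tail vein, as niche cells labelled shSox9, as niche cells with the label control, and as distal lung cells with the label control. Each epithelial replicate pooled 5 lungs. The labels and design text do not state which cells carried the Sox9 hairpin. They also leave unstated whether each 4T1 replicate was a culture or an animal of its own, and the spread behind those p-values may be technical.

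Libraries held 15907316 to 30421705 counts. Sox9, the gene named by the hairpin label, stood at 91.1, 62.3 and 36.8 CPM (counts scaled to a library of 1e6) in the niche libraries labelled shSox9, against 64.9, 58.8 and 32.99 CPM in niche libraries, and it was not lower there (log2 fold change 0.26, SE 0.27, adjusted p = 0.55 by edgeR). The label is therefore used only as a name. The summed alveolar type 2 markers, all 10 of which were called lower in niche than in distal libraries, reached 35431 to 59424 CPM in libraries labelled shSox9, 9698 to 12767 CPM in niche and 200303 to 246638 CPM in distal libraries. The 8 macrophage markers summed to 162 to 1015 CPM under the label shSox9, 3257 to 3703 CPM in niche and 255 to 379 CPM in distal libraries. The 5 fibroblast markers summed to 12702 to 14225 CPM in niche and 2888 to 3553 CPM in distal libraries, and the 6 general epithelial markers to 700 to 1560 and 1010 to 1142 CPM. Over a panel of 86 genes at 20 CPM or more in every 4T1 library and at most 5% of the in vivo mean in distal libraries, the libraries labelled shSox9 stood at 23.3%, 18.5% and 12.3% of the in vivo 4T1 level, niche libraries at 23.7%, 23.8% and 15.9%, and distal libraries at 1.85% to 3.12%. This panel was set after the data were seen, because the planned one, with a limit of 0.5% in place of 5%, held 1 gene; that gene stood at 0 in all libraries labelled shSox9, at 10.0%, 0 and 0.345% in niche libraries and at 0 in distal libraries. Whether the epithelial cells express panel genes themselves was not tested.

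Ribosomal protein mRNAs took the largest share of counts in 4T1 cells and the smallest in distal epithelium. The 86 genes took 2.69%, 2.38% and 3.02% of counts in 4T1 cells in vivo, and 2.79%, 2.82% and 3.42% in vitro. They took 1.26%, 1.14% and 1.27% in the libraries labelled shSox9, 1.49%, 1.40% and 1.23% in niche libraries, and 0.663%, 0.691% and 0.847% in distal libraries. The 3 distal libraries lay below all 12 others, and all 6 4T1 libraries lay above all 9 epithelial ones. The 95% Wilson interval of a library's share reached at most 0.00790 percentage points to either side, which covers counting error only and is far narrower than the spread between replicates. In bulk samples, fewer cells of a type and less RNA per cell cannot be told apart.

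**Figure D1:**
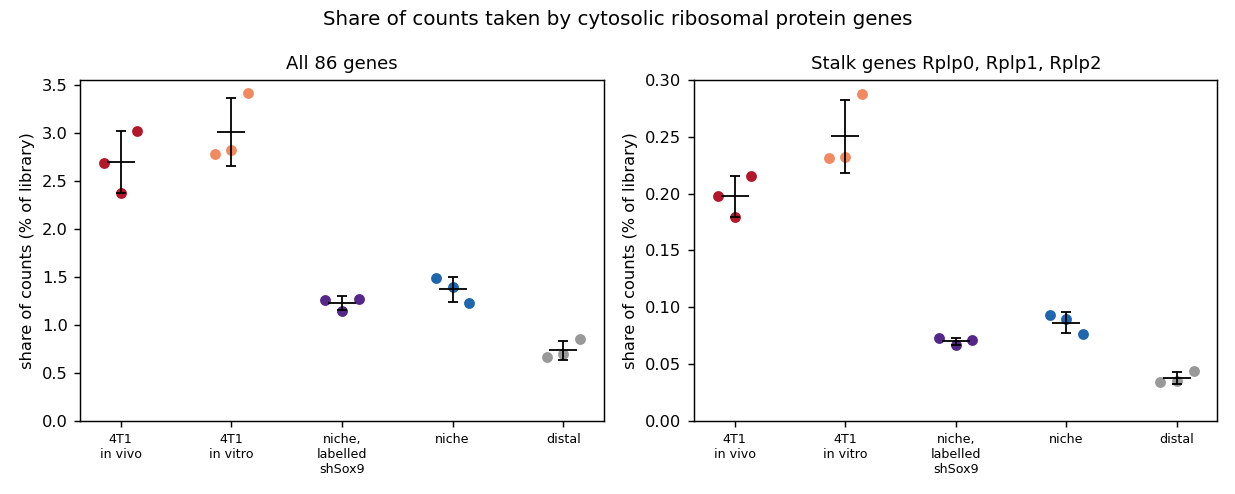
Share of each library's counts, in percent, taken by the 86 cytosolic ribosomal protein genes (left) and by the 3 stalk genes (right). Points are libraries, bars are the mean and SD of 3. Distal libraries sit lowest at 0.663% to 0.847% and the 4T1 groups, which overlap, highest at 2.38% to 3.02% in vivo and 2.79% to 3.42% in vitro.

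The order of levels among the genes was much alike in all groups. Over the 77 genes of the subunits and stalk, log-scale mean TPM (a level corrected for transcript length) in any pair of groups had a Pearson r of 0.940 to 0.993, given as a description over genes that share libraries and transcript lengths. Rpl32, a large subunit protein, was the most abundant in niche libraries at 1641 ± 190 TPM (SD, n = 3), against 711 ± 96.3 TPM in distal libraries. In distal libraries the first and second places were taken by the small subunit proteins Rps19, at 1037 ± 47.4 TPM, and Rps27, at 907 ± 108 TPM. Rps2 was the lowest of the 77 in every group, at 6.24 to 18.4 TPM in single libraries.

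That low value of Rps2 depends on how shared reads were counted. Ribosomal protein genes have many near-identical processed copies in the mouse genome. Transcripts of annotated pseudogenes, and of coding genes with Gm or -ps symbols, were searched by sequence, which assigned 1156 such genes to members as copies. A match needed at least 90% identity over at least 50% of the query, so some copies may be partial or not processed. Over all libraries, 99.2% of the counts of Rps2 and its copies had been given to the copies, as had 94.7% for Rpl5, 91.7% for Rps18, 90.8% for Rpl29 and 83.1% for Rpl21. The share exceeded 50% for 16 members and was below 1% for 36, among them Rps19 at 0.592%, Rps27 with none, Rplp2 at 0.00192%, Rpl22 at 0.276% and Rpl36al at 0.00850%. With copies added, Rps2 reached 1163 ± 176 TPM in niche and 412 ± 29.7 TPM in distal libraries, and the highest of the 77 genes exceeded the lowest 16.7-fold in niche and 24.4-fold in distal libraries, in place of 149-fold in both. Values of members with a high copy share are therefore uncertain, and they are given below with and without copies where this matters.

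**Figure D2:**
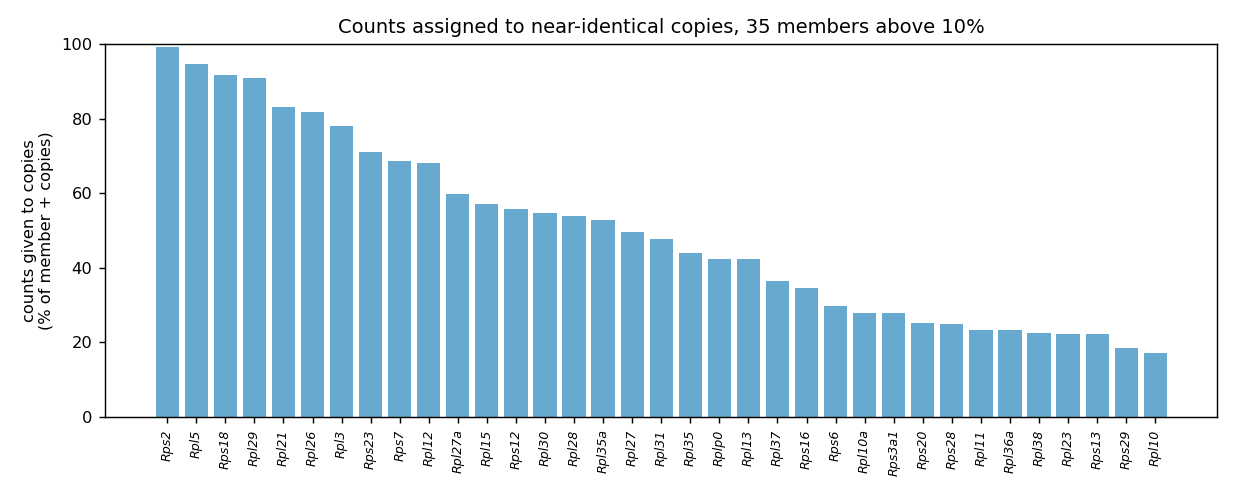
Percent of counts assigned to copies matched by sequence, out of the counts of a member plus its copies, summed over 15 libraries. The 35 members above 10% are shown. Rps2 stands at 99.2% and Rpl5 at 94.7%.

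Of the 86 genes, 83 had enough counts to be tested in every comparison. The other 3 are paralogs known for tissue-restricted expression, Rpl3l in striated muscle and Rpl10l and Rpl39l in male germ cells. Rpl10l was listed at 0 in all 15 libraries. Rpl39l was listed at 0 in all 6 4T1 libraries and reached 2.10, 1.00 and 1.65 TPM in niche libraries against 0.55, 0 and 0.16 TPM in distal libraries. Rpl3l did not exceed 0.89 TPM in any library.

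In 4T1 cells from the lung, set against cultured 4T1 cells, some ribosomal protein mRNAs were called lower, at a share near that of all genes in the main test. Of the 83 genes tested, 25 (30.1%) were called lower and 1 was called higher by edgeR at an adjusted p below 0.05, where 24.0% of all genes tested were called lower and 27.0% higher. The median log2 fold change was -0.23 over the members and 0.01 over all genes tested. The summed share averaged 2.70% ± 0.322 in vivo and 3.01% ± 0.355 in vitro (SD, n = 3 each), a difference that the spread between libraries covers (two-sided exact permutation p = 0.4; with 3 against 3 libraries it cannot go below 0.1). The count of lower calls rests partly on single libraries, being 14 without in vivo library 2 and 36 without in vivo library 3. It also depends on the setting. With no filter beyond 1 count it was 46 of 83, where 3831 of 26935 genes tested were lower. With the replicate letter as a block it was 39 of 83, where 3591 of 14022 were. The median also moved, to -0.15 without in vivo library 2, -0.38 without in vivo library 3, -0.13 without in vitro library 3 and -0.11 with library size only. The 8 markers of proliferating cells, of which 5 were lower and 1 higher, summed to 2364 to 2575 CPM in vivo and 2468 to 2697 CPM in vitro, and the macrophage markers to 33.7 to 203 CPM in vivo and 10.0 to 13.1 CPM in vitro; their part in the result was not tested.

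Large subunit genes made up most of the lower calls, with 19 of 43 (44.2%), against 4 of 31 small subunit genes (12.9%). Over all genes tested 24.0% were called lower. The median log2 fold changes of the 2 classes were -0.28 and -0.22. The ratio of small to large subunit counts was 0.667 ± 0.00507 in vivo and 0.646 ± 0.0180 in vitro (SD), with overlap (two-sided exact permutation p = 0.3). Rplp0, the stalk protein that anchors the other stalk proteins and a common reference gene, had 1388, 1223 and 1511 CPM (scaled by TMM) in vivo, against 1832, 1858 and 2193 CPM in vitro. The groups did not overlap, and the log2 fold change was -0.51 (SE 0.11, adjusted p = 0.0034 by edgeR). Rpl7a, a large subunit protein, fell by 0.66 on the log2 scale, and Rpl4 by 0.49, with adjusted p-values of 0.0018 and 0.0013. Among small subunit genes, Rps24 fell by 0.53 with an adjusted p of 0.019 by edgeR. Large falls were also those of Rpl27 (-0.57) and Rpl19 (-0.52). Rpl5, whose protein binds Mdm2 when ribosome assembly is disturbed, fell by 0.35, or by 0.58 with its copies added. Rpsa, the laminin-receptor-related small subunit protein, stood at -0.11 and Rps6, the target of the ribosomal S6 kinases, at -0.17, and neither was called.

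Among the paralogs, Rpl7l1 and Rpl22l1 changed in opposite directions in 4T1 cells. Rpl7l1, a paralog of Rpl7 with a role in assembly of the large subunit, had 211, 201 and 207 CPM in vivo, against 348, 369 and 418 CPM in vitro. Its log2 fold change was -0.88 (SE 0.09, adjusted p = 6.6e-05 by edgeR), and it remained called in all 15 alternative settings, at -0.95 to -0.76. Rpl22l1, a paralog of Rpl22 that Rpl22 is known to hold down in mice, had 57.3, 53.1 and 82.98 CPM in vivo, against 37.6, 45.0 and 47.5 CPM in vitro. All in vivo libraries were above all in vitro ones (log2 fold change 0.57, SE 0.17, adjusted p = 0.018 by edgeR). Without in vivo library 3, which was the highest, the change was 0.34 with an adjusted p of 0.051, and without in vitro library 1 it was 0.46 with an adjusted p of 0.066.

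To see which members departed from the rest, the libraries were rescaled to the ribosomal protein genes themselves. On that scale 2 members were called higher, where 29.4% of all genes tested were, and 2 lower, where 5.80% were, in vivo against in vitro. They were Rpl22l1 at 0.80 and Rpl10a at 0.43, and Rpl7l1 at -0.62 and Rpl7a at -0.40, as log2 fold changes relative to the members. Rpl10a was no longer called with copies added (adjusted p = 0.073 by edgeR). The ratio of Rpl22l1 to Rpl22 in TPM averaged -0.23 ± 0.18 on the log2 scale in vivo and -1.02 ± 0.23 in vitro (SD, n = 3 each), with no overlap between the groups (two-sided exact permutation p = 0.1, the lowest possible). The ratio of Rpl7l1 to Rpl7 averaged -2.56 ± 0.21 in vivo and -1.96 ± 0.09 in vitro, with the same p in an exact permutation test.

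Other genes of the ribosome pathway were also called lower in 4T1 cells from the lung. Of 34 ribosome biogenesis genes, 33 were called lower and none higher, with a median log2 fold change of -0.77. Npm1, the nucleolar chaperone nucleophosmin, averaged 959 CPM in vivo and 1924 CPM in vitro, and Rrp12, a factor in subunit export, fell by 1.14 on the log2 scale. Fau and Rack1 were lower by edgeR, at -0.67 and -0.60, as were 23 of 29 initiation factors, 10 of 15 elongation factors and other mRNAs with the pyrimidine tract, and 9 of 14 RNA polymerase I genes, of which 1 was higher. Of 78 mitochondrial ribosomal protein genes, which build the separate ribosome of mitochondria, 42 were lower and 2 higher, with a median of -0.34. Of 9 snoRNA host genes tested, 3 were called higher, led by Gas5 at 1.02, and 1 lower, Snhg5 at -0.41. Over all genes tested, 27.0% were called higher and 24.0% lower.

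**Figure D3:**
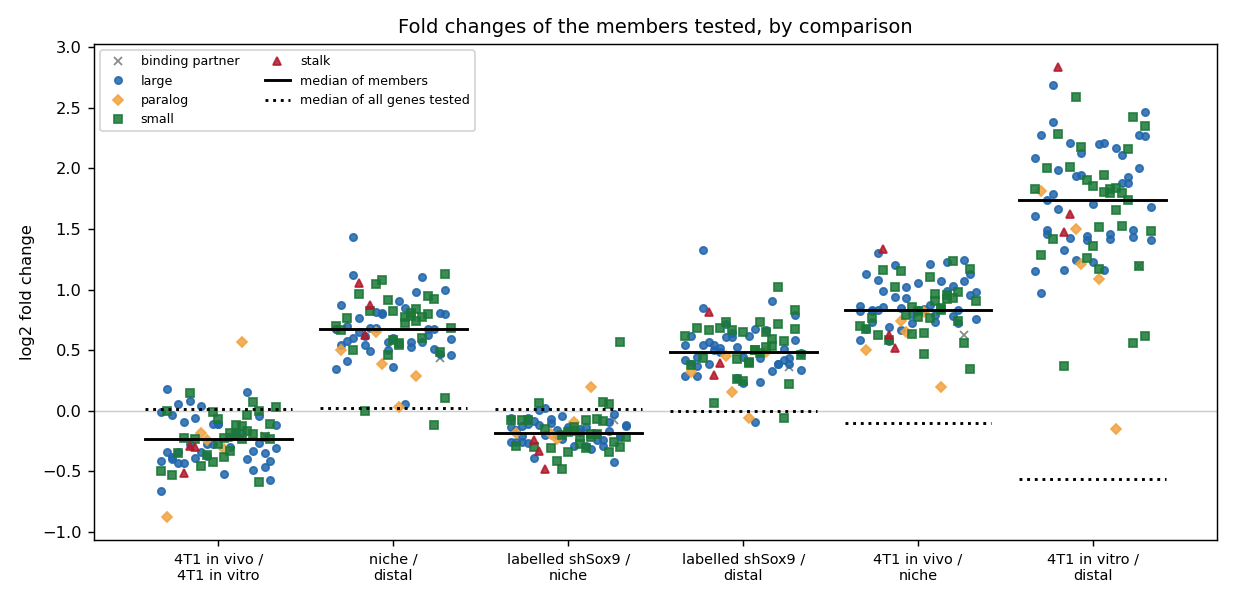
Log2 fold change of each of the 83 members tested, in 6 comparisons, with the group named first over the group named second. Colours and shapes mark the class, solid lines the median of the members and dotted lines the median of all genes tested. In niche over distal the members sit at a median of 0.68, with Rps19, Rps27, Rpl36al and Rpl21 near 0.

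Niche libraries had higher levels of ribosomal protein mRNAs than distal libraries, nearly throughout the family. By edgeR 76 of 83 members (91.6%) were called higher and none lower, where 28.5% of all genes tested were called higher and 25.8% lower, and 0 members had a negative change with an unadjusted p under 0.05. The median log2 fold change was 0.68 over the members and 0.02 over all genes tested. The summed share averaged 1.37% ± 0.131 in niche and 0.734% ± 0.0991 in distal libraries (SD, n = 3 each), without overlap (two-sided exact permutation p = 0.1, the lowest possible). The 10 most abundant genes alone took 25.7% to 30.1% of counts in distal libraries and 6.74% to 7.37% in niche libraries. Leaving them and the mitochondrially encoded genes out, the shares were 1.49% ± 0.134 in niche and 1.04% ± 0.141 in distal libraries.

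The size of the rise differed between 2 subtractions of in vivo 4T1 counts from the niche libraries. In proportion to the planned panel of 1 gene, 76 members were called higher as before, the median log2 fold change was 0.65 and the share difference 0.592 percentage points. In proportion to the panel of 86 genes, 33 of 83 members were called higher and 0 lower. Of all 17243 genes tested in that setting, 4292 were higher and 3583 lower. The median of the members was 0.40 and the share difference 0.285 percentage points, against 0.639 with no subtraction. The 8 markers of proliferating cells, all called higher in niche libraries, summed to 525 to 726 CPM in niche and 112 to 185 CPM in distal libraries. All 8 macrophage markers and 4 of 5 fibroblast markers were also called higher. All 10 alveolar type 2, 6 of 7 alveolar type 1, 4 of 4 club and 4 of 4 ciliated markers were called lower. The part of these cell types and of proliferation in the result was not tested.

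The largest rise was that of Rpl12, a protein at the base of the stalk, with 31.7, 26.2 and 30.9 CPM in niche libraries, against 9.40, 11.8 and 11.8 CPM in distal libraries. The groups were far apart, with a log2 fold change of 1.43 (SE 0.15, adjusted p = 1.8e-05 by edgeR), or 1.20 with its copies added. Rpsa had 216, 203 and 184 CPM in niche libraries, against 84.2, 75.3 and 116 CPM in distal libraries, and rose by 1.13 on the log2 scale (SE 0.15, adjusted p = 7.2e-05 by edgeR). Large rises were also those of Rpl30 (1.12), Rpl39 (1.10), Rplp0 (1.06), Rps10 (1.04) and Rpl27 (1.00). All 3 stalk genes rose, Rplp2 by 0.87 and Rplp1 by 0.63, where the median of all members was 0.68. The stalk share was 2.29 times the distal one, against 1.86 times for each of the large and small subunit genes. Of the stalk genes only Rplp0, which had the most counts, was called higher by edgeR after scaling to the members. With the subtraction by the 86-gene panel, described above, Rplp0 lay at -0.08 relative to the member median. The ratio of small to large subunit counts was 0.686 ± 0.0121 in niche and 0.687 ± 0.0173 in distal libraries (two-sided exact permutation p = 0.9).

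Other members with known separate roles lay within this range. Rps6 rose by 0.78, and Rpl38, a large subunit protein known for selective translation of Hox mRNAs in mouse embryos, by 0.98. Rpl5 rose by 0.47 on its own counts and by 0.84 with copies, and Rps2 stood at 0.11, not called, or at 0.92 with copies. Rps19bp1 rose by 0.43. Among the paralogs, Rps27l, a p53 target, rose by 0.65 and Rpl7l1 by 0.50.

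A few members did not follow the rest. Rps19, mutated in Diamond-Blackfan anaemia, had 390, 350 and 337 CPM in niche libraries, against 390, 357 and 419 CPM in distal libraries. Rps27, a zinc-finger protein of the small subunit, had 220, 227 and 206 CPM in niche libraries, against 211, 191 and 251 CPM in distal libraries. The groups overlapped for both genes. Rpl36al, the paralog of Rpl36a, had 86.1, 81.7 and 76.8 CPM in niche libraries, against 73.6, 64.2 and 102 CPM in distal libraries, again with overlap. Their log2 fold changes were -0.11, 0.00 and 0.03, with adjusted p-values by edgeR of 0.42, 0.995 and 0.89. These are values on the TMM scale. On the log2(TPM + 1) scale, where the median of all genes was 0.45 higher than with TMM, Rps19 stood at 0.42 and Rps27 at 0.59, against a member median of 1.24.

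Scaled to the members, 8 were called higher and 7 lower in niche than in distal libraries by edgeR, where 9.26% of all genes tested were higher and 54.2% lower. Rps19 stood at -0.79 (adjusted p = 0.00022), Rps27 at -0.67 (adjusted p = 0.0011), Rpl36al at -0.63 (adjusted p = 0.0012) and Rpl22l1 at -0.39 (adjusted p = 0.026) by edgeR. Rpl21, named after its values were seen, and Rpl10 were also called lower, at -0.62 and -0.33, and both stayed below 0 with copies added. Among those called higher were Rpl12 (0.75), Rpsa (0.47), Rpl30 (0.45), Rpl39 (0.44), Rplp0 (0.38), Rps10 (0.37) and Rpl27 (0.33), of which Rpl27 was no longer called with copies added (adjusted p = 0.14 by edgeR). Set against the member median under each of 19 settings, Rps19 lay at -0.83 to -0.71, Rps27 at -0.70 to -0.51 and Rpl36al at -0.72 to -0.53. Rplp0 lay at -0.08 after the subtraction by the 86-gene panel and at up to 0.42 in the other settings, and Rpl22l1 lay at -0.05 after that subtraction.

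**Figure D4:**
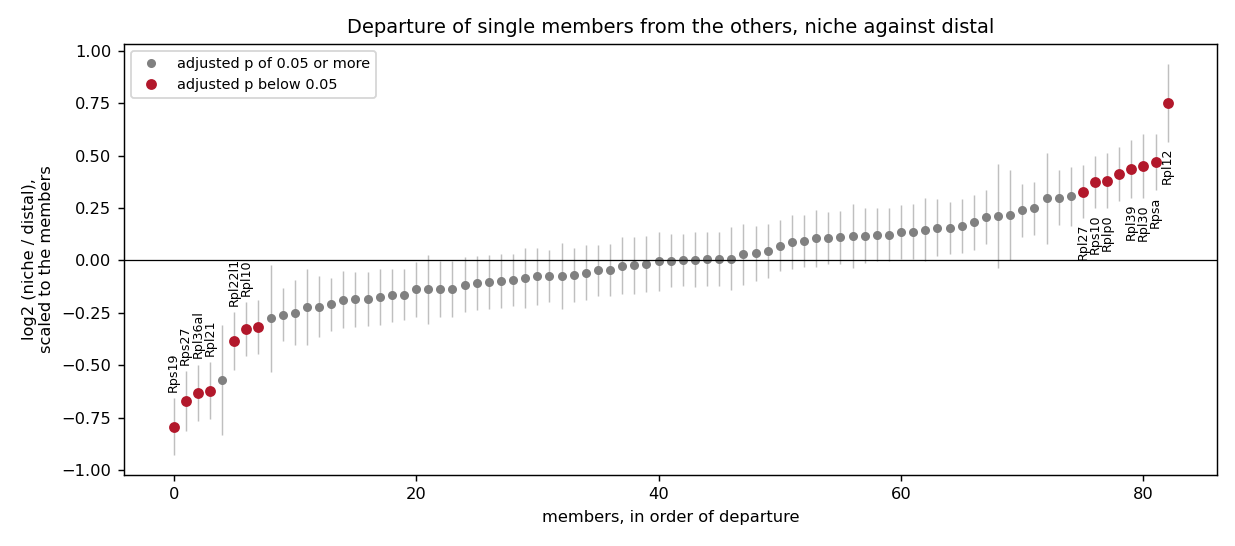
Log2 fold change of niche over distal for each of 83 members, after scaling the libraries to the members, with its SE. Members called by edgeR at an adjusted p below 0.05 are red, and those given in the text are named. Rps19 stands lowest at -0.79 and Rpl12 highest at 0.75.

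The annotated transcription starts of some of these genes are shown to compare members that rose together with those that did not. The 30 bases around each start (15 before and 15 from it on, sense strand, 5′ to 3′) were taken from RefSeq on GRCm38.p6, and capitals mark the longest run of at least 5 pyrimidines that begins with C. The first 4 genes rose in niche libraries, and the last 3 did not.
Rplp2, chr7:141447636-141447665, plus strand: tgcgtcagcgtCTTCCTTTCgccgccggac
Rps10, chr17:27635230-27635259, minus strand: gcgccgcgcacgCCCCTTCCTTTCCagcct
Rps6, chr4:86857353-86857382, minus strand: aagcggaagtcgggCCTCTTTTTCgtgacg
Rpl38, chr11:114668565-114668594, plus strand: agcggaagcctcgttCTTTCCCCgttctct
Rps27, chr3:90213634-90213663, minus strand: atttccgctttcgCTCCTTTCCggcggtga
Rps19, first of 3 starts, chr7:24884577-24884606, plus strand: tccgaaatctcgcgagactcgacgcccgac
Rps19, last of 3 starts, chr7:24884898-24884927, plus strand: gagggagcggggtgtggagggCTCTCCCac
Rpl36al, chr12:69184053-69184082, minus strand: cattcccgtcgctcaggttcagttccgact
A pyrimidine run was thus present at Rps27, as at the 4 risen genes printed first, and at the last of the annotated Rps19 starts, and not in the windows printed for the first Rps19 start and for Rpl36al. The genes printed are examples, and whether a run goes with a rise was not tested. By edgeR 91.6% of the members tested were called higher in niche than in distal libraries. The window of Rpl7l1, which rose by 0.50, held no pyrimidine run. Such a run, a C followed by 4 pyrimidines on the sense strand within 5 bases before to 11 after a start, was found for 31 of the 66 members with an entry (47.0%), against 22.5% of all 27025 genes with one and 24.6% of 69 mitochondrial ribosomal protein genes. The hexamer CTTTCC, on either strand within 50 bases of a start, was found for 23 of 66 members (34.8%) against 10.3% of all genes and 10.1% of the mitochondrial set. The heptamer CCGGAAG, the core to which ETS-family factors bind, on either strand in the 300 bases from 250 before to 50 after a start, was found for 26 of 66 members (39.4%) against 9.93% of all genes, but also for 26 of the 69 mitochondrial ribosomal protein genes (37.7%). These matches describe letters in a window, and annotated starts can lie off the main start of a gene.

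The rest of the ribosome pathway was higher in niche libraries too. Of 34 ribosome biogenesis genes, 32 were called higher and none lower by edgeR, with a median log2 fold change of 1.05. Nhp2, a protein of the pseudouridylation complex, averaged 92.0 CPM in niche and 30.2 CPM in distal libraries, and Npm1 averaged 258 CPM in niche and 96.5 CPM in distal libraries. Rack1 and Fau rose, by 1.10 and 0.57. Of 15 elongation factors and other mRNAs with the pyrimidine tract, 13 rose, led by Pabpc1, the cytoplasmic poly(A)-binding protein, at 1.66. Of 29 initiation factors, 20 rose and 1 fell, of 14 RNA polymerase I genes 7 rose and 1 fell (Polr1c, -0.84), and of 78 mitochondrial ribosomal protein genes 45 rose and 3 fell (median 0.35). The 18 genes of mTORC1 and translation control were divided, with 3 higher and 4 lower and a median of 0.05. Eif4ebp1, a translational repressor that mTORC1 inhibits, was among the higher at 0.95.

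Few members passed the test when libraries labelled shSox9 were set against niche libraries. By edgeR 5 of 83 members (6.02%) were called lower and 0 higher, where 10.8% of all genes tested were lower and 9.68% higher, so the share of calls was no higher than in all genes. At an unadjusted p under 0.05 there were 15 of 83 members, in either direction. Of all genes tested, 20.5% passed the stricter adjusted threshold in either direction. The median log2 fold change was -0.18 over the members and 0.02 over all genes tested, and 76 of 83 values were negative. The summed share averaged 1.22% ± 0.0731 in libraries labelled shSox9 and 1.37% ± 0.131 in niche libraries (SD, n = 3 each), with overlap (two-sided exact permutation p = 0.3). By edgeR 9 of 34 ribosome biogenesis genes were called lower and 0 higher. Of 78 mitochondrial ribosomal protein genes 13 were lower and 0 higher, and of 29 initiation factors 4 were lower and 1 higher. Of 14 RNA polymerase I genes 0 were called, and of 9 snoRNA host genes 2 were higher and 0 lower. The macrophage and proliferation markers were also lower under this label, with 7 of 8 and 5 of 8 called, and all 10 alveolar type 2 markers were higher; their part in these values was not tested.

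Of the 5 members called, 2 were stalk genes. Rplp2 had 105, 99.5 and 111 CPM in libraries labelled shSox9, against 148, 142 and 149 CPM in niche libraries. These did not overlap, with a log2 fold change of -0.48 (SE 0.11, adjusted p = 0.012 by edgeR). Rplp1 stood at -0.33 (adjusted p = 0.049 by edgeR) and Rplp0, not called, at -0.24. Rps12, a small subunit gene, was called at -0.48, and Rpl31, a large subunit gene, at -0.39. With copies added, Rps12 stood at -0.28 and Rpl31 at -0.27, with adjusted p-values of 0.052 and 0.087 by edgeR. With the replicate letter as a block, which may pair libraries here, 3 members were called lower. The calls rest on single libraries, since 1, 0 and 5 members were called lower without libraries 1, 2 and 3 labelled shSox9, and 1, 1 and 3 without niche libraries 1, 2 and 3. Scaled to the members, none departed from the rest by edgeR, either higher, where 11.7% of all genes tested were, or lower, where 5.98% were; at -0.30 Rplp2 had an adjusted p of 0.12.

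Set against distal libraries, with which the niche comparison shares its controls, the libraries labelled shSox9 had 66 of 83 members called higher and none lower by edgeR, where 21.7% of all genes tested were higher and 22.0% lower. The median log2 fold change was 0.48, and the summed share averaged 1.22% ± 0.0731 in libraries labelled shSox9 and 0.734% ± 0.0991 in distal libraries (two-sided exact permutation p = 0.1). The planned subtraction removed nothing from these libraries, since its 1 gene stood at 0 in all of those labelled shSox9. It therefore could not test this comparison (67 members called higher, median 0.48). With 4T1 counts subtracted by the 86-gene panel, 8 of 83 members were called higher and 0 lower. Of all 17243 genes tested in that setting, 2902 were higher and 3051 lower. The median of the members was 0.12 and the share difference was 0.159 percentage points (two-sided exact permutation p = 0.3). Rpl12 was again the largest rise, with 31.9, 23.6 and 26.9 CPM in libraries labelled shSox9, against 9.40, 11.8 and 11.8 CPM in distal libraries (log2 fold change 1.32, SE 0.15), and it was still called after that subtraction, at 0.88. Rplp0 stood at 0.81 before the 86-gene subtraction and at -0.06 after it. Rpl22l1 was called at 0.48 before and at 0.56 after it, by edgeR. Scaled to the members, 4 were called higher and 4 lower, where 7.13% and 44.3% of all genes tested were, and the lower ones were Rps19 (-0.56), Rps27 (-0.44), Rpl36al (-0.55) and Rpl21 (-0.58).

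The paralog pairs differed between groups in their ratio. Rpl22l1 had 192, 177 and 212 TPM in libraries labelled shSox9, 164, 188 and 166 TPM in niche libraries and 92.8, 90.01 and 106 TPM in distal libraries. Rpl22 had 107, 103 and 97.8 TPM in libraries labelled shSox9, 139, 135 and 128 TPM in niche libraries and 35.6, 49.8 and 64.6 TPM in distal libraries. The paralog was thus above its partner in all 9 epithelial libraries and below it in all 6 4T1 libraries. The log2 ratio averaged 0.91 ± 0.18 under the label shSox9, 0.36 ± 0.12 in niche and 0.98 ± 0.35 in distal libraries (SD, n = 3 each). Niche libraries did not overlap either other group (two-sided exact permutation p = 0.1 for each), and those labelled shSox9 overlapped distal ones (exact permutation test, p = 0.8). Rps27l stood below Rps27 in every library, at a mean log2 ratio of -1.37 ± 0.16 in niche and -2.01 ± 0.11 in distal libraries, without overlap (two-sided exact permutation p = 0.1). Of the 30 ratios tested over 5 pairs, none could pass a threshold of 0.05 with 3 libraries a group.

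**Figure D5:**
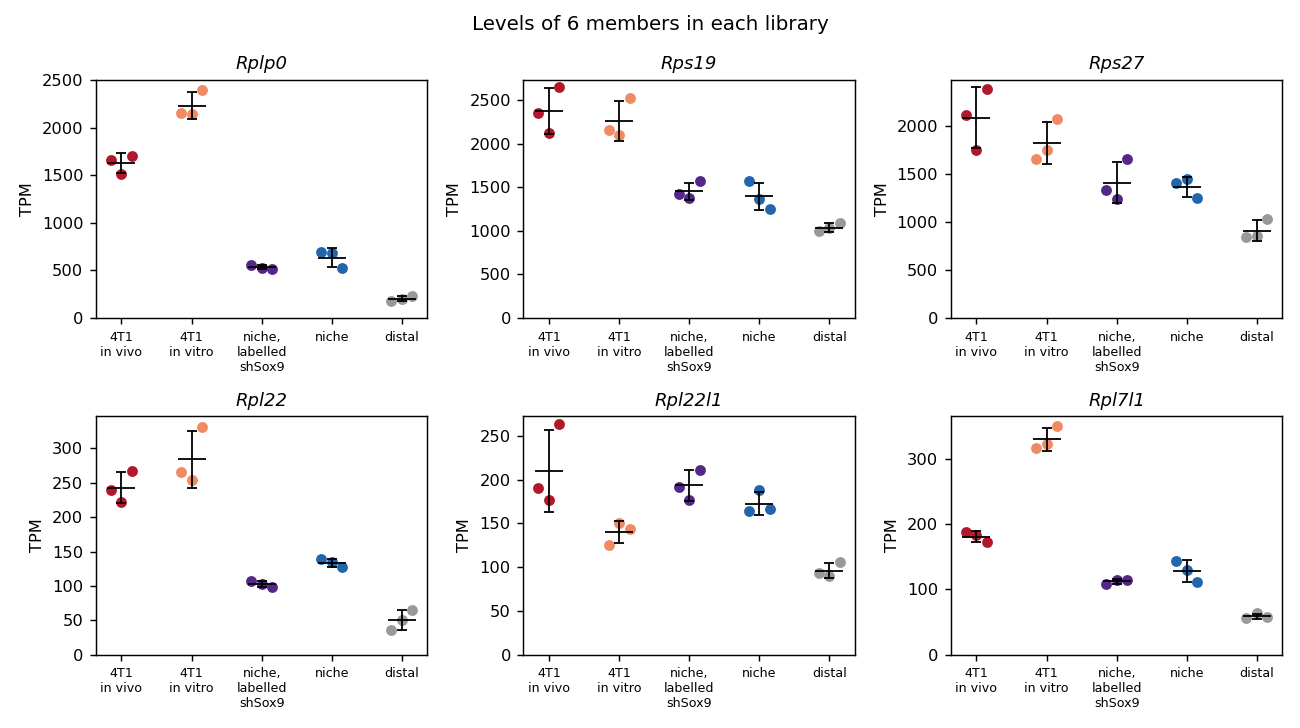
TPM of 6 members in each of the 15 libraries, with mean and SD of 3 per group. Rplp0 spans 182 to 2391 TPM, whereas Rps19 spans 996 to 2649 TPM, and Rpl22l1 is the one panel where cultured 4T1 libraries lie below both niche groups.

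Tumour cells were above epithelium for almost every member. Set against niche libraries, 4T1 cells in vivo had 80 of 83 members called higher and none lower by edgeR, where 28.9% of all genes tested were higher and 36.0% lower, with a median log2 fold change of 0.83. On own counts Rplp0 led with 1.33, followed by Rpl30 (1.30), Rpl5 (1.24) and Rps7 (1.24), and Rpl22l1 stood at 0.20, not called. The order of the leading genes is uncertain. Copies held 42.4% of the counts of Rplp0 and its copies, 54.6% for Rpl30, 94.7% for Rpl5 and 68.5% for Rps7. Scaled to the members, 8 were called higher and 5 lower, where 6.11% and 61.3% of all genes tested were. Set against distal libraries, 4T1 cells in vitro had 81 of 83 called higher and none lower, where 30.5% and 51.0% of all genes tested were, with a median of 1.74. The summed shares were 3.01% ± 0.355 in vitro and 0.734% ± 0.0991 in distal libraries, a ratio of 4.10. The stalk genes had a ratio of 6.65, but only Rplp0, with a log2 fold change of 2.84, lay above the member median. The median of the stalk genes was 1.62 and their lowest value 1.48.

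Between cultured 4T1 cells and distal epithelium the members were spread most widely. Scaled to the members, 23 were called higher and 24 lower by edgeR, where 7.19% and 81.3% of all genes tested were. Rplp0 averaged 1828 ± 181 CPM in vitro and 255 ± 33.5 CPM in distal libraries (SD, n = 3 each), and its log2 fold change was 2.84 (SE 0.14, adjusted p = 2.6e-11 by edgeR), the largest of the members. Rps19 rose by 0.56 and Rps27 stood at 0.37, not called, which put them at -1.15 and -1.33 relative to the members. Rpl22l1, at -0.15, lay at -1.85 relative to the members and was the one tested member with a negative value. Rps2 rose by 0.62 on its own counts and by 2.18 with copies added. Of the 34 ribosome biogenesis genes all 34 were called higher in both comparisons of tumour cells with epithelium.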

How the data were processed

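RNA sequencing data covered 15 mouse libraries. RSEM, GRCm38 and DESeq2 are named in the submitters' processing notes, without versions, and reads were 75 bases long, per the labels' protocols. The authors deposited expected counts (11.8% to 14.1% of values were not whole) and TPM per gene. Groups were taken from the sample titles. Gene symbols came from GENCODE M21, which matched 54809 of 54838 IDs.

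Expected counts were rounded and tested with edgeR 4.0.16 (quasi-likelihood test, TMM scaling, filterByExpr, Benjamini-Hochberg adjustment over all genes tested, threshold 0.05) in R 4.3.3. The 6 4T1 libraries and the 9 epithelial libraries were fitted apart, and all 15 together for comparisons of tumour cells with epithelium. Shares and ratios were compared by two-sided exact permutation tests. Alternatives used DESeq2 1.42.0 and limma 3.58.1 on log2(TPM + 1). The edgeR step was tested on simulated counts. Same-numbered libraries labelled shSox9 and niche libraries may be paired. Their deviations from the group means correlated weakly, at 0.205, 0.149 and 0.177. The main test used no replicate block. Libraries held 15907316 to 30421705 counts, so that 3 counts correspond to 0.0986 to 0.189 CPM.

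The members and all gene lists were chosen with earlier results of these data known. Named members were the 8 largest called rises and falls without overlap in a comparison (4 between tumour cells and epithelium), the stalk proteins, paralogs with their partners, and Rps6, Rpl5, Rpl11, Rps19, Rpsa, Rps19bp1 and Rpl41; Rpl10a, Rpl21, Rpl38 and Rps2 were named after their values were seen. Some genes that the rule names are not reported here. After the data were seen, 3 analyses were added: copies assigned with blastn 2.17.0 (at least 90% identity over at least 50% of the query), scaling to the members by median ratios over members with at least 100 counts, and subtraction of 4T1 counts by a panel of 86 genes, since the planned panel held 1 gene.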

Additional observations from a re-analysis of the deposited data

How the results depend on the processing

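In 4T1 cells in vivo against in vitro, 14 of 83 members were called lower with library size only, where 2425 of 14022 genes tested were. Lower calls numbered 46 with no filter beyond 1 count, where 3831 of 26935 genes tested were lower. With the replicate block they numbered 39, where 3591 of 14022 genes tested were lower. Deviations of same-numbered libraries correlated at 0.092, -0.0024 and 0.107. With single libraries left out, lower calls numbered from 14, where 2964 of 14492 genes tested were lower, to 36, where 3178 of 14536 were. Higher calls were 2 with library size only and 0 to 1 with libraries left out. In libraries labelled shSox9 against niche, lower calls were 2 with DESeq2 size factors, with library size only and with the planned 4T1 subtraction, 3 with the effective length offset, either addition of copies and the replicate block, 8 with the DESeq2 Wald test and 0 to 5 with libraries left out, and 1 higher call came from limma on log2(TPM + 1). With the DESeq2 Wald test, 2126 of 17640 genes tested were lower in libraries labelled shSox9 against niche. With no filter, 85 members were tested and 2 lower calls appeared in each comparison of tumour cells with epithelium. The 2 members added by this setting were Rpl3l and Rpl39l, listed at 0 in every 4T1 library. The cause of the moves in calls was not tested.

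Subtraction of 4T1 counts by the 86-gene panel left 33 of 83 members called higher in niche against distal, where 4292 of 17243 genes tested were. In libraries labelled shSox9 against distal it left 8 of 83, where 2902 of 17243 genes tested were. The medians of the members were 0.40 and 0.12, and 1.31 for 4T1 cells in vivo against niche. In the same order, the share differences were 0.285, 0.159 and 1.68 percentage points. Median log2 fold changes in niche against distal, shSox9-labelled against distal and 4T1 in vitro against distal were 0.95, 0.76 and 2.07 with library size only, and 1.24, 1.07 and 2.37 with limma on log2(TPM + 1). These scalings moved the median of all genes by 0.27, 0.28 and 0.34, and by 0.45, 0.45 and 0.59.

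As a share of TPM the differences were -0.853 (4T1 in vivo against in vitro), 2.003 (niche against distal), -0.389 (shSox9-labelled against niche), 1.61 (shSox9-labelled against distal), 2.89 (4T1 in vivo against niche) and 5.74 (4T1 in vitro against distal). Without the 10 most abundant and the mitochondrial genes they were 0.454 for niche and 0.337 for shSox9-labelled against distal. With copies by sequence they were 0.888, 0.681, 1.87 (4T1 in vivo against niche) and 3.19 (4T1 in vitro against distal), and 2.60 for the last with copies by symbol.

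Signs turned for 12 single values. After the panel subtraction Rpl5 stood at -0.18 in niche against distal, and in shSox9-labelled against distal Rpl36a stood at -0.046, Rpl5 at -0.078, Rplp0 at -0.057, Rplp1 at -0.0059, Rps3a1 at -0.064 and Rps4x at -0.038. With limma on log2(TPM + 1), Rps19 and Rps27 stood at 0.42 and 0.59 in niche against distal, Rpl36al and Rps19 at 0.55 and 0.49 in shSox9-labelled against distal, and Rpl22l1 at 0.54 in 4T1 in vitro against distal. Of the other values of named members, 2621 kept direction and side of the threshold, 129 lost the call, 52 gained it and 66 moved.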
